A study of Homo sapiens with 4 samples.

Results

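The MYC and PVT1 locus on the long arm of chromosome 8 was described from ATAC-seq peaks of RKO, an established line of human colon carcinoma cells. All peaks overlapping the interval chr8:127900000-129300000 (hg19) were taken, irrespective of their values. This interval of 1400 kb runs from the colon cancer enhancer stretch upstream of MYC to the sequence beyond PVT1. Peaks of the 4 libraries that overlapped were joined into regions, and the locus held 32 of the 20450 regions found on chromosomes 1 to 22 and X. Tn5 transposase inserts adapters where DNA is open, so that a peak marks a stretch of accessible chromatin. The control group and the shCHD7-2 group each had 2 libraries. Both groups were RKO cells stably infected with lentivirus, carrying either a control construct, which the labels do not describe further, or a single short hairpin RNA against CHD7. CHD7 encodes an ATP-dependent chromatin remodeller that is known to bind distal enhancers and promoters. The comparison asked how accessibility differed once CHD7 was depleted. The level of CHD7 itself was not measured in these peak lists. The labels do not say whether libraries of a group came from separate cultures, so errors may be technical only.

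MYC encodes a transcription factor that drives cell growth, ribosome production and entry into the cell cycle, and in the colon epithelium it is a target of WNT signalling. MYC lies in a region poor in protein-coding genes, and its transcription is controlled by distal enhancers on both sides that differ between cell types. PVT1, its neighbour downstream, is a long non-coding RNA gene whose body holds enhancers, and whose own promoter can compete with that of MYC for them. In hg19, MYC spans chr8:128748315-128753680, and PVT1 spans chr8:128806779-129113499, starting 58.5 kb after MYC. In the RefSeq gene table, which is of another build (GRCh38.p14) and was used for gene order only, the non-coding RNA genes PCAT1, PRNCR1, CCAT1 and CASC8, then the protein-coding POU5F1B and the non-coding CASC11, precede MYC.

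For each peak the lists give a fold enrichment at the summit, which is the pileup of reads over the local background with 1 added to each, and a -log10 p. The percentile rank of a peak was taken by -log10 p within its own list, where 100 is the strongest. Read numbers are the whole-number pileup at the summit, recovered from fold and p. Folds and ranks are relative to each list, and the lists differed in length and depth. Control replicates 1 and 2 held 13257 and 12092 peaks, and shCHD7-2 replicates 1 and 2 held 7199 and 8715. The background pileup, recovered from fold and p as a measure of depth, was 0.916 and 0.843 reads in the control libraries, against 1.40 and 1.62 reads in the shCHD7-2 libraries. Differences in width, fold and calls between the groups moved with this difference in depth, whose part in them was not tested.

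Open chromatin was found at the MYC promoter in every library, crossing the MYC start in 3 of the 4, while the MYC gene body showed no further peak. Clusters of peaks lay in the PVT1 body, beyond the PVT1 end and between 396 and 520 kb before MYC. Of the 32 regions, 8 were called in all 4 libraries (25%, against 16.6% of all regions and 18.0% on the rest of chromosome 8). Regions were termed lost if they were peaks in both control libraries but in no shCHD7-2 library, and gained if the reverse held. Lost regions numbered 4 of the 14 called in both control libraries, which is 28.6% (95% Clopper-Pearson interval 8.39% to 58.1%), against a background of 34.4% over all chromosomes and 20.2% on the rest of chromosome 8. The 2 gained regions were 18.2% of the 11 called in both shCHD7-2 libraries (2.28% to 51.8%), against a background of 11.0%. Both backgrounds lay within these intervals, which cover counting over regions only. A further 12 regions were called in a single library, or 37.5% against 47.8% of all regions. The remaining 6 were called in 2 or 3 libraries of mixed groups.

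**Figure D1:**
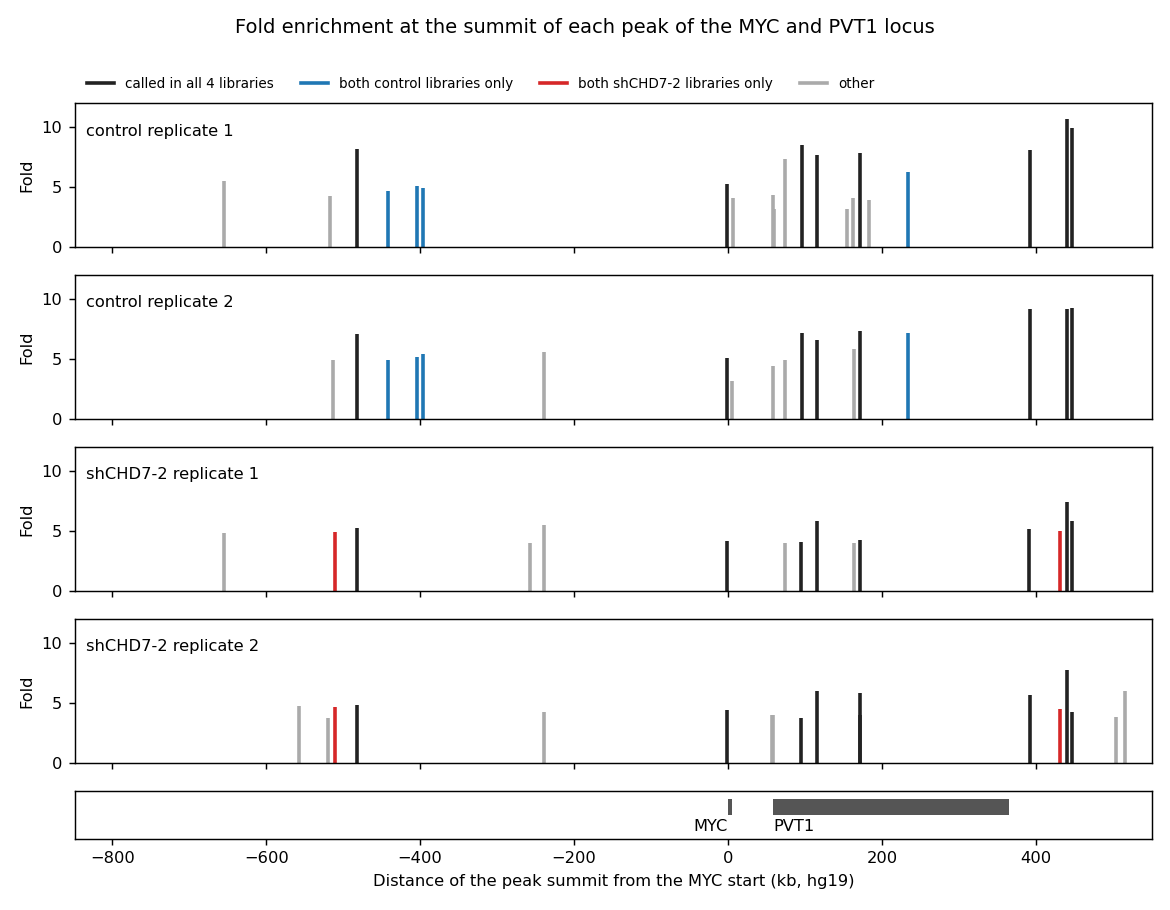
Fold enrichment at the summit (vertical axis, pileup over local background with 1 added to each) of each peak against its distance from the MYC start (kb, hg19), with 1 panel per library and gene bodies at the bottom. Black lines are the 8 regions called in all 4 libraries. Blue lines are the 4 called in both control libraries only, and red lines the 2 called in both shCHD7-2 libraries only. The highest line lies 441 kb after the MYC start in control replicate 1 and both shCHD7-2 libraries. In control replicate 2 the line 447 kb after the start is higher, at a fold of 9.24 against 9.20.

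The number of peaks at the locus was 21 and 18 in control replicates 1 and 2, and 15 and 18 in shCHD7-2 replicates 1 and 2. The groups met at 18 peaks, so they did not separate. The means were 19.5 ± 2.12 and 16.5 ± 2.12 peaks (SD, n = 2 each). The log2 ratio of shCHD7-2 over control was -0.24, with p = 0.667 by an exact two-sided permutation test over libraries. Over all chromosomes the log2 ratio was -0.67, and on the rest of chromosome 8 it was -0.22. The ratio at the locus was therefore near that of its chromosome, and its difference from the genome was not tested. As a share of its own list, the locus held 15.8 and 14.9 peaks per 10000 in the control libraries against 20.8 and 20.7 in the shCHD7-2 libraries. Both shCHD7-2 shares were above both control shares, with a log2 ratio of 0.43. By exact permutation this gave p = 0.33, the smallest that 2 against 2 libraries can give, so that this test could not pass 0.05 in any comparison here. Adjusted over the 5 comparisons of the locus by the Benjamini-Hochberg method, exact permutation p was 0.417 for 4 of them and 0.667 for the number of peaks. On the rest of chromosome 8 this log2 ratio was 0.45, so the larger share was not particular to the locus. With the same number of top peaks taken from each list, 7199, the log2 ratio of the share was 0.046.

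Peaks of the locus covered less sequence in the shCHD7-2 libraries and were narrower. The covered length was 12455 and 10747 bp in control replicates 1 and 2, and 6220 and 7584 bp in shCHD7-2 replicates 1 and 2. The means were 11601 ± 1208 bp and 6902 ± 964 bp (SD, n = 2 each). This log2 ratio was -0.75 (permutation p = 0.33, exact), against -0.43 on the rest of chromosome 8 and -0.89 over all chromosomes. Peaks had a mean width of 593 and 597 bp in the control libraries and 415 and 421 bp in the shCHD7-2 libraries, a log2 ratio of -0.51 (permutation p = 0.33, exact). The 2 library means of each group lay close together (SD 2.80 bp for control, 4.71 bp for shCHD7-2). Each mean was taken over peaks of very different width, from 200 to 1207 bp in control replicate 1 and from 200 to 853 bp in shCHD7-2 replicate 1. An SD of 2 such means does not show how well the width of a single region repeats. At the MYC promoter, for example, shCHD7-2 replicates 1 and 2 had widths of 547 and 1045 bp, against 1193 and 1161 bp for the control replicates. Width had a log2 ratio of -0.21 both on the rest of chromosome 8 and over all chromosomes. This difference between the locus and other regions was not tested.

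**Figure D2:**
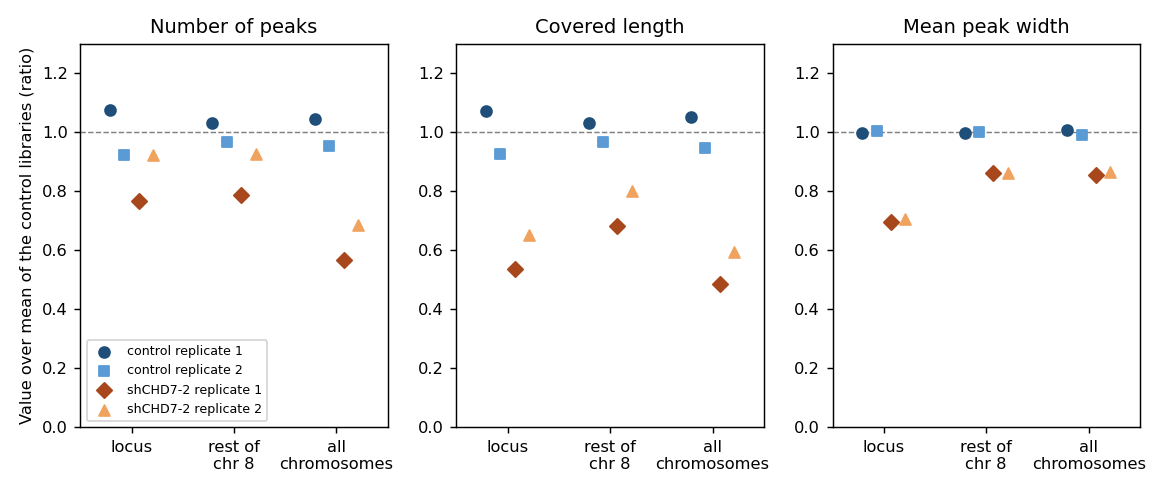
Number of peaks, covered length and mean peak width in each library, divided by the mean of the control libraries (vertical axis, ratio), for the locus, the rest of chromosome 8 and all chromosomes; each point is a library. At the locus the shCHD7-2 points reach the control points for the number of peaks and lie below them for covered length and width.

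The promoter of MYC was open in all 4 libraries. The region spanned chr8:128747384-128748591 and held the MYC start, with most of its length before the gene. Peak width there was 1193 and 1161 bp in control replicates 1 and 2. In shCHD7-2 replicate 1 it was 547 bp, and in shCHD7-2 replicate 2 it was 1045 bp. Both shCHD7-2 peaks were narrower, but the shCHD7-2 libraries differed from each other by more than shCHD7-2 replicate 2 differed from control. In both control libraries and in shCHD7-2 replicate 2 the peak crossed the MYC start, ending 261, 276 and 181 bp into the gene. In shCHD7-2 replicate 1 it stopped 253 bp before the start. The summit lay 698 and 701 bp before the start in control, and 659 and 743 bp before it in shCHD7-2, so that all 4 summits fell within 84 bp.

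At its summit the MYC promoter held 48 and 47 reads in the control libraries, and 31 and 39 reads in the shCHD7-2 libraries. Both shCHD7-2 pileups were lower although those libraries had the higher background. Fold enrichment was 5.30 and 5.08 in control, and 4.2 and 4.43 in shCHD7-2. The local background around the gene, over which these folds are taken, was 9.0 and 10.0 times the library background in control and 4.73 and 4.94 times in shCHD7-2. The percentile rank was 91.6 and 91.0 in control against 78.9 and 89.5 in shCHD7-2. Relative to the other regions called in all 4 libraries, the fold was not lower. It was 0.716 and 0.712 times the median fold of those regions in the control lists, and 0.735 and 0.780 times in the shCHD7-2 lists. The fall in fold at MYC was therefore no greater than that of the median region called in all 4 libraries. This holds for that scale only. Over all peaks of each list, the median fold was 5.74 and 5.79 in control, and 5.08 and 4.96 in shCHD7-2.

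**Figure D3:**
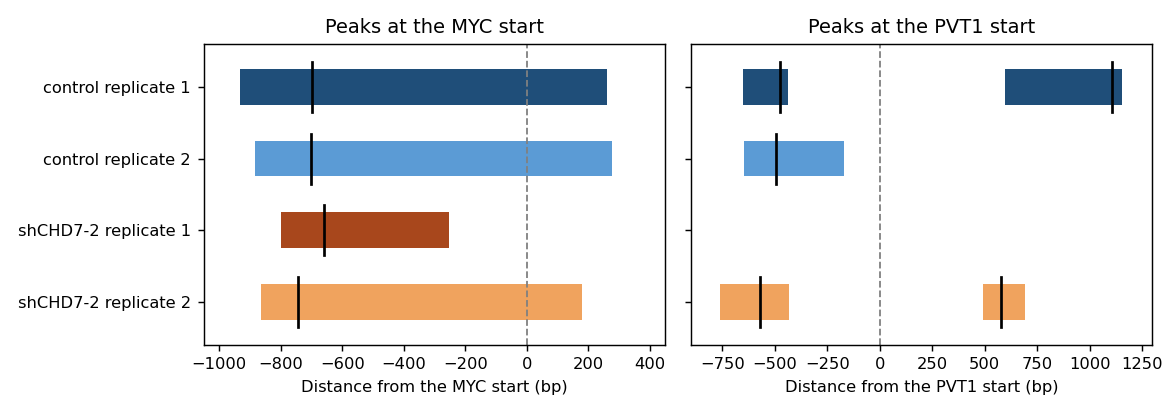
Extent of each peak (bars) and its summit (black ticks) around the MYC start and the PVT1 start, in bp from the start (dashed line), for each library. The MYC peak of shCHD7-2 replicate 1 is 547 bp wide and stops before the start, and at PVT1 that library has no peak.

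Just beyond the MYC end there were 2 weak peaks, each in a single library. One at chr8:128754002-128754374 was called in control replicate 2 alone, with 17 reads and a percentile rank of 9.46. The other, at chr8:128755237-128755495, was called in control replicate 1 alone, with 18 reads and a rank of 35.8. They did not overlap, so no position between MYC and the PVT1 promoter was called in both control libraries.

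The PVT1 start was less marked than that of MYC. A region at chr8:128806016-128806607, ending before the start, was called in both control libraries and in shCHD7-2 replicate 2. It held 22 and 21 reads in control and 19 reads in shCHD7-2 replicate 2, with percentile ranks of 52.1, 51.2 and 46.0. The 3 summits lay 477, 496 and 570 bp before the start. In shCHD7-2 replicate 1 no peak was listed there. A second region, chr8:128807272-128807934, lay just inside the gene and was called in control replicate 1 with 17 reads and in shCHD7-2 replicate 2 with 19 reads, but the summits were 529 bp apart. In the first region shCHD7-2 replicate 2 thus held 2 reads fewer than the lower control library, without scaling for depth. Its fold was 4.03, against 4.32 and 4.45 in control. For shCHD7-2 replicate 1 no value is given, as no peak was listed. At a -log10 q of 5 or more the first region counted as lost. The second region was called once in each group.

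The PVT1 body, which is 307 kb long, held 10 regions that overlapped the gene, of which 3 were called in all 4 libraries and 1 was lost. The most stable of them in rank and summit position was chr8:128863473-128864687, 57.3 kb into PVT1. It held 50 and 39 reads in control, and 32 and 42 reads in shCHD7-2. Its percentile ranks were 97.5 and 93.1 in control and 93.6 and 97.2 in shCHD7-2, so the groups overlapped. The summits of the 4 libraries fell within 11 bp. Fold itself did not overlap, at 7.68 and 6.62 in control against 5.87 and 5.97 in shCHD7-2. Each fold was also divided by the median fold of regions called in all 4 libraries in its list. This gave 1.04 and 0.927 in control, and 1.03 and 1.05 in shCHD7-2.

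The regions on either side of it differed more between the groups. At chr8:128843311-128844225, which is 37.0 kb into PVT1, 25 and 24 reads were counted in control against 14 and 13 in shCHD7-2. Fold was 8.50 and 7.18 in control, and 4.05 and 3.70 in shCHD7-2. Percentile ranks were 88.9 and 83.9 in control and only 24.8 and 11.5 in shCHD7-2, the widest gap among the 8 regions. Peak width was 915 and 558 bp in control, and 222 and 260 bp in shCHD7-2. The control summits were at the same base, while the shCHD7-2 summits were 413 bp apart and their peaks did not overlap each other. Both were joined only through the wider control peaks. At a -log10 q of 5 or more, neither shCHD7-2 library listed this region, and it counted as lost.

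At chr8:128919662-128920497, which is 113 kb into PVT1, the control libraries held 33 and 30 reads with percentile ranks of 92.4 and 90.2. In shCHD7-2 replicate 1 there were 16 reads at a rank of 39.7. In shCHD7-2 replicate 2 the region was divided into 2 separate peaks of 235 and 238 bp, the stronger with 25 reads at a rank of 86.6 and the weaker with 17 reads at a rank of 36.4. Both shCHD7-2 libraries were below both control libraries in reads and rank. A further region, 15.5 kb into PVT1 at chr8:128821945-128822707, held 29 and 16 reads in control and 12 reads in shCHD7-2 replicate 1, with no peak in shCHD7-2 replicate 2. Its percentile ranks were 88.4, 46.1 and 13.6. Here the control libraries themselves were far apart.

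The lost region of PVT1 was the strongest of the 4 lost regions at the locus. At chr8:128981602-128982155, 175 kb into the gene, it held 28 reads in each control library, at percentile ranks of 82.5 and 88.0, and no peak was listed in either shCHD7-2 library. Its mean rank of 85.3 compares with a median of 44.7 over the 2947 lost regions of all chromosomes. A missing peak means that the caller's threshold was not reached, which is not the same as closed chromatin.

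The other 4 regions of the PVT1 body were weak or called unevenly. Control replicate 1 alone had peaks at chr8:128902547-128902746 with 8 reads, chr8:128911138-128911441 with 13 reads and chr8:128930826-128931081 with 12 reads, at percentile ranks of 0.0038, 20.6 and 12.4. The first of these was the weakest peak of its whole list. At chr8:128911506-128911813, 64 bp from the second of them, control replicate 2 had 15 reads and shCHD7-2 replicate 1 had 16, at ranks of 56.6 and 29.5.

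Beyond PVT1 lay the strongest region of the locus, and it was called in all 4 libraries. At chr8:129188790-129189676, 441 kb after the MYC start, 58 and 47 reads were counted in control, and 33 and 39 reads in shCHD7-2. Fold was 10.7 and 9.20 in control, and 7.39 and 7.78 in shCHD7-2. It ranked first among the peaks of the locus in every library, at percentile ranks of 99.6 and 98.7 in control and 97.5 and 98.8 in shCHD7-2. Peak widths were 834, 887, 823 and 802 bp, and the 4 summits fell within 8 bp. Fold was also divided by the median fold of regions called in all 4 libraries in its list. This gave 1.45 and 1.29 in control, and 1.29 and 1.37 in shCHD7-2, so the groups overlapped on that scale.

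Its neighbour differed. At chr8:129195342-129196067, which begins 5665 bp further on, 29 and 28 reads were counted in control, and 19 and 13 in shCHD7-2. Fold was 9.93 and 9.24 in control, and 5.85 and 4.22 in shCHD7-2. Percentile ranks were 94.4 and 93.3 in control, and 77.8 and 25.6 in shCHD7-2. Both shCHD7-2 libraries were below both control libraries, and shCHD7-2 replicate 2 was far below shCHD7-2 replicate 1. Nearer to PVT1, chr8:129139492-129140469 held 28 and 34 reads in control, and 18 and 28 reads in shCHD7-2, at percentile ranks of 90.2, 95.9, 65.4 and 88.4. In that region the summit of shCHD7-2 replicate 1 lay 344 bp from that of shCHD7-2 replicate 2.

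A gained region lay between those peaks. At chr8:129179827-129180377 there were 16 reads in shCHD7-2 replicate 1 and 14 in shCHD7-2 replicate 2, at percentile ranks of 56.0 and 37.2, and no control peak was listed. At a -log10 q of 5 or more it was called in 1 library only. Beyond the neighbour of the strongest region, shCHD7-2 replicate 2 alone had peaks at chr8:129252769-129252968 and chr8:129264125-129264564. The latter, with 24 reads and a rank of 86.4, was the strongest of the 12 regions called in a single library.

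Upstream of MYC, no peak was listed in any library over the 238 kb between chr8:128509197 and chr8:128747384. The 12 regions of the 848 kb before MYC were mostly of middle rank. A single one of them was called in all 4 libraries, at chr8:128265677-128266404, which is 482 kb before MYC. It held 28 and 22 reads in control, and 23 and 28 reads in shCHD7-2, at percentile ranks of 90.4, 81.1, 79.5 and 81.7. The groups overlapped in rank and in reads, which are not scaled for depth. Fold did not overlap, at 8.24 and 7.10 in control against 5.29 and 4.80 in shCHD7-2. Its width did not overlap: 489 and 727 bp in control against 258 and 241 bp in shCHD7-2.

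The other 3 lost regions of the locus followed each other in this stretch. At chr8:128306455-128307600, 441 kb before MYC, control replicates 1 and 2 held 17 and 19 reads, at percentile ranks of 44.6 and 55.2. At chr8:128344119-128344599, 404 kb before MYC, each held 16 reads, at ranks of 49.0 and 49.3. At chr8:128352282-128352896, 396 kb before MYC, they held 17 and 19 reads, at ranks of 48.2 and 61.3. All 3 were near the middle of the control lists, and their control summits lay 96, 20 and 12 bp apart. The first of them was called in 1 control library only when equal numbers of top peaks were taken. These ranks were close to the median of 44.7 for lost regions of all chromosomes.

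The gained region of the upstream stretch was chr8:128237378-128237623, 511 kb before MYC. It held 19 and 20 reads in the shCHD7-2 libraries, at percentile ranks of 64.5 and 64.1, with summits 2 bp apart. Control replicate 2 had a separate peak of 23 reads at chr8:128234827-128235438, 513 kb before MYC, at a rank of 64.1. Of the others, chr8:128508722-128509197, 239 kb before MYC, was called in control replicate 2 with 14 reads and in shCHD7-2 replicates 1 and 2 with 20 and 19 reads. Fold there was 5.60 in control replicate 2, and 5.53 and 4.22 in shCHD7-2 replicates 1 and 2. At chr8:128093008-128093354, control replicate 1 had 12 reads and shCHD7-2 replicate 1 had 16, with folds of 5.56 and 4.83. The upstream stretch held 4 regions called in both control libraries and 3 called in both shCHD7-2 libraries.

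**Figure D4:**
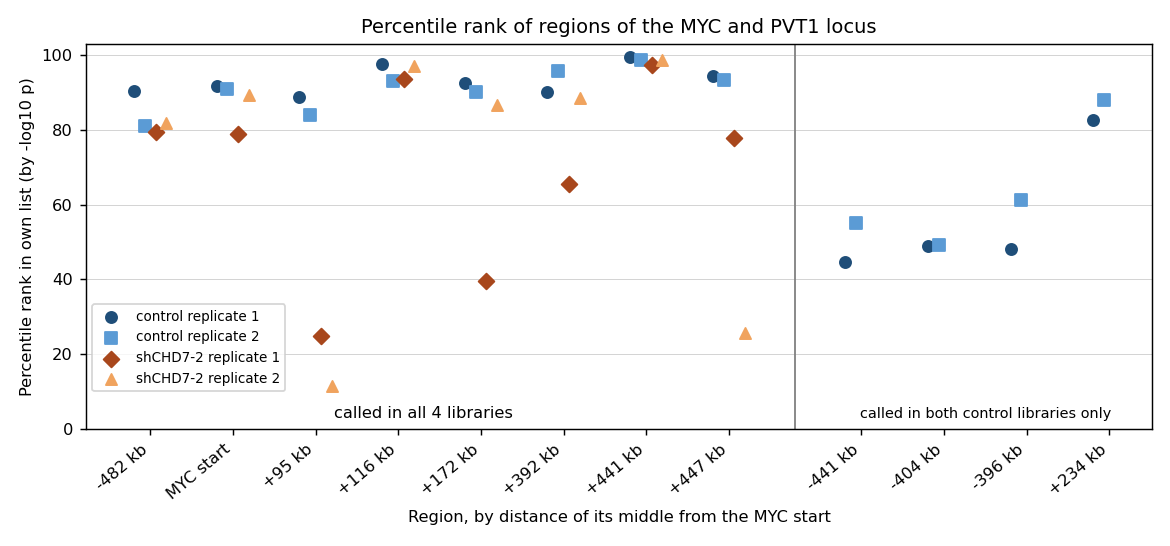
Percentile rank of each region within its own list (vertical axis, 100 is the strongest) by distance of its middle from the MYC start, for the 8 regions called in all 4 libraries (left) and the 4 called in both control libraries only (right); each point is a library, and the stronger peak is shown where a library has 2. The shCHD7-2 points fall to 24.8 and 11.5 at +95 kb, while at +116 kb and +441 kb the 4 libraries stay above 93.

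Across the 8 regions called in all 4 libraries, fold enrichment was lower in both shCHD7-2 libraries than in both control libraries in 8, against 66.1% of such regions over all chromosomes. Peaks were narrower in both shCHD7-2 libraries in 7, against a background of 50.3%. At the region 116 kb after the MYC start this rested on 1 bp, with widths of 1207 and 939 bp in control and 853 and 938 bp in shCHD7-2. The exception was the region 392 kb after the MYC start, with widths of 978 and 816 bp in control and 768 and 839 bp in shCHD7-2. Percentile rank was lower in both shCHD7-2 libraries in 5, against 41.3%, and higher in both in 0. When each fold was divided by the median fold of regions called in all 4 libraries in its list, which was 7.41 and 7.14 in control and 5.71 and 5.68 in shCHD7-2, it was lower in both shCHD7-2 libraries in 5 of 8, against a background of 20.1%. Those 5 were the regions 482 kb before MYC and 95.5, 172, 392 and 447 kb after its start. The MYC promoter was higher on this scale in both shCHD7-2 libraries, and the regions 116 and 441 kb after its start overlapped between the groups. These are counts over few neighbouring regions of the same 4 libraries, and no test was made of their difference from other regions.

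**Figure D5:**
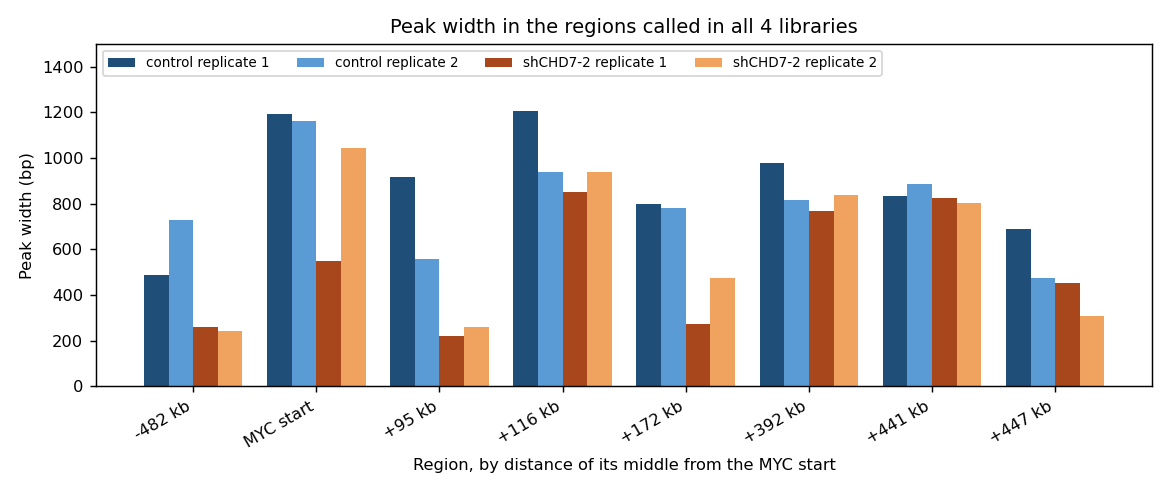
Peak width (bp, vertical axis from 0) in each library for the 8 regions called in all 4 libraries, by distance of their middle from the MYC start; where a library has 2 peaks in a region their widths are added. Widths are lower in both shCHD7-2 libraries in each region but the one at +392 kb, by 1 bp at +116 kb (939 against 938 bp), and span the narrowest range at +441 kb, where they lie between 802 and 887 bp.

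The mean percentile rank of all peaks at the locus was 61.2 and 69.9 in the control libraries, and 58.5 and 58.2 in the shCHD7-2 libraries. The means were 65.6 ± 6.14 and 58.3 ± 0.172 (SD, n = 2 each), a difference of -7.24 with p = 0.33 by exact permutation. With equal numbers of top peaks, which removes the difference in list length, it was -3.60 (exact permutation p = 0.667). The control libraries differed from each other by more than control replicate 1 differed from shCHD7-2. At a -log10 q of 5 or more the difference was 1.8, in the opposite direction. The 4 values lay above 50, the mean of any whole list.

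The locus was denser in open regions than most of the genome. Over 1973 stretches of the same length that held at least 1 region, the median was 10 regions and the quartiles were 6 and 14, against 32 at the locus. The 1400 kb before the locus held 34 regions and the 1400 kb after it held 17. Regions called in all 4 libraries numbered 8 at the locus, 7 in the stretch before and 3 in the stretch after. Local background was also raised at peaks of the locus, with medians of 3.12 and 3.46 times the library background in control, against 2.1 and 2.16 on the rest of chromosome 8. In the shCHD7-2 libraries the medians were 2.11 and 2.24, against 1.9 and 1.82. The copy number of the locus in these cells was not analysed here.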

How the data were processed

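Each library was deposited by the authors as a narrowPeak list, called separately per library. The processing notes of the submitters name Bowtie2 2.2.5, SAMtools 1.9, MACS2 2.1.2, deepTools 3.3.0 and hg19. Parameters, any shift of reads for Tn5 and the removal of duplicates are not given in the sources used here. The lists hold a deposited score, the fold enrichment (a ratio), -log10 p and q values and a summit offset, as the authors' caller gave them. The lowest -log10 q was 1.30 to 1.32.

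Peaks on chromosomes 1 to 22 and X were joined where they overlapped by at least 1 bp, and positions are given from 1. Pileup and background were solved from fold and p, which gave whole reads for 100% of peaks within 0.001 in -log10 p. Summit pileups of replicates varied less than counts would by chance alone, with chi-square over degrees of freedom of 0.569 in control and 0.523 in shCHD7-2, but summits are selected maxima. Since 7861 of 16418 control regions and 6916 of 11283 shCHD7-2 regions were called in 1 of the 2 replicates, each library was counted as 1 sample. Groups and replicate numbers came from titles. Group means were compared by an exact two-sided permutation test over 6 assignments of libraries and adjusted by the Benjamini-Hochberg method over the 5 comparisons.

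The interval, its genes and the division of the locus were chosen with earlier results of these data known. The regions named were those overlapping MYC or PVT1 or within 2 kb of either start, those called in all 4 libraries, lost or gained, and the 3 highest ranked others. Some further regions called in few libraries were named after their values were seen. Joining and recovery were tested on simulated data. The work used matplotlib 3.10.9, pandas 2.3.3, SciPy 1.17.1, NumPy 2.4.6 and Python 3.11.15. No genome of the build of the files was used, and no sequence is shown.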

Additional observations from a re-analysis of the deposited data

How the results depend on the processing

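With 2 against 2 libraries the exact permutation test cannot give p below 0.33, nor the sign-flip test of the block p below 0.5, so neither could pass 0.05 under any alternative. Covered length was lower in shCHD7-2 and the share of peaks higher under each alternative run, from -1.16 to -0.46 and from 0.046 to 0.66 on the log2 scale. With equal numbers of top peaks the log2 ratio of peaks turned to 0.046, as that setting keeps 7199 peaks of each list, and the difference in mean percentile rank was -3.60. At a -log10 q of 5 or more the log2 ratio of peaks was -0.96. The difference in mean percentile rank turned to 1.8 at that threshold. It gave 7 lost regions, 1 gained region and 5 called in all 4 libraries, and fewer peaks qualify there. The MYC promoter was called in all 4 libraries under each threshold and joining rule. With the interval widened by 500 kb on each side, 4 regions were gained and 13 called in all 4. Joining by summits within 250 bp left 6 regions called in all 4 libraries, without those 95.5 and 392 kb after the MYC start, and gave 5 lost regions.

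Leaving out 1 library gave 5 to 9 lost and 2 to 6 gained regions. Without control replicates 1 and 2 there were 7 and 9 lost regions, and without shCHD7-2 replicate 1 there were 6 gained. The log2 ratio of the share ran from 0.39 to 0.48. In these comparisons 1 library stands alone and there is no test. The difference in mean rank was -11.6 without control replicate 1 and -2.89 without control replicate 2.

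With the replicate number as a block, log2 differences were -0.24 for peaks, -0.75 for covered length and 0.43 for the share, and -7.24 for mean rank (exact sign-flip test, p = 0.5 or 1). The numbers share no stated batch, and calls of same-numbered libraries deviated together with a correlation of only 0.01 over 20450 regions, which are not independent replicates.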
